A study of Rattus norvegicus with 16 samples.

Results

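The comparison described here set the left ventricles of 4 interval-trained High Capacity Runner (HCR) rats against those of 4 interval-trained Low Capacity Runner (LCR) rats, as HCR minus LCR. The arrays were chosen by their titles, and all probe sets except Affymetrix controls were used, so 8 of the 16 arrays of the series and 31042 probe sets entered the comparison. Both lines were bred from the N:NIH stock by mating the best or the poorest treadmill runners of each generation, judged at about 11 weeks, and the animals were females of generation 16, killed at about 7 months. The trained rats of both lines ran uphill at 25 degrees for 1.5 hours on 5 days per week over 8 weeks, switching between 8 minutes at 85 to 90% of maximal oxygen uptake and 2 minutes at 50 to 60%. The other 8 arrays, 4 sedentary rats of each line and of like age, entered only the shared estimate of spread and the comparison of the line difference between trained and sedentary rats. Each array was 1 rat, and the rats of a line share their breeding history, so a line stands here for 4 animals of 1 breeding population.

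The lines are a model of inborn aerobic capacity: animals are mated by how far they run, and alleles that differ between the lines by selection or by chance are carried along. Gene expression in the heart can therefore differ between the lines both before and after training. Aerobic interval training is known to enlarge the ventricle and to raise the heart's capacity to pump and to oxidise fuel. The ventricle is mostly cardiomyocyte by mass, with endothelial cells, fibroblasts, mural cells and leukocytes between the muscle cells.

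The tissue label was checked on its markers, and all 14 measured cardiomyocyte markers lay above the array median on all 8 trained arrays. Over probe sets, pairs of trained arrays had correlations from 0.987 to 0.994. None of 20 array properties differed between the trained groups after adjustment (two-sided exact permutation tests, lowest adjusted p 0.898). Among them were the array median, control-transcript 3' to 5' differences and the mean level of cell type markers. The lowest unadjusted p of these tests was 0.0857, for lymphocyte markers. As 4 against 4 arrays cannot give a p below 0.0286, 1 property alone could not pass adjustment over 20. The result therefore does not show that the groups were alike. LCR trained rat 4 stood highest of all 16 arrays on the first principal component (23.9) and in interquartile range (2.27). In the sedentary HCR group, rat 5 lay at 3.76 to 4.94 on the 4 probe sets of Xist, the transcript of the inactive X chromosome. On these probe sets the 8 trained rats lay at 7.56 or above. Rat 5 enters the trained comparison only through the spread, but it is part of the sedentary HCR mean.

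Few probe sets differed between the trained lines. With limma on all 16 arrays and Benjamini-Hochberg adjustment over all probe sets, 30 of 31042 reached an adjusted p of 0.05 or less and are termed called, 0.0966% of those tested. Of these 14 were higher in HCR (0.0451%) and 16 lower (0.0515%). Without adjustment, 2274 probe sets had a p under 0.05 (7.33%). The called probe sets stood for 16 named genes, 7 higher and 9 lower, and for 12 probe sets with no single gene symbol. Their absolute difference ran from 0.31 to 4.85 on the log2 scale with a median of 0.92, and 13 reached 2-fold, as did 0.132% of all probe sets. In all 30 the 8 arrays did not overlap between the lines, which held for 1.61% of all probe sets in the higher and 1.53% in the lower direction. The number called moved with single arrays: it was 14 without HCR trained rat 4, 14 without HCR rat 5, 17 without HCR rat 6, 12 without LCR trained rat 1, 53 without LCR rat 2 and 12 without LCR rat 3. Leaving out the sedentary HCR rats 4, 5 or 6, which only feed the spread, gave 16, 16 and 13. Over the 16 fits that each left out 1 array, Vps52 (1394386_s_at), Bean1, Coq9 and Baalc stayed called in all 16, Cand2 in 15 and Cyp11a1 in 12. Sqor and Crebl2 stayed called in 9, Dpy19l4 in 8, Vps52 1369667_at in 6, both RT1-Ba probe sets in 5 and Acot2 in 4. Akr1b10, Amd1 and Retsat stayed called in 3 of the 16 and Dcps and Bag3 in 2.

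**Figure D1:**
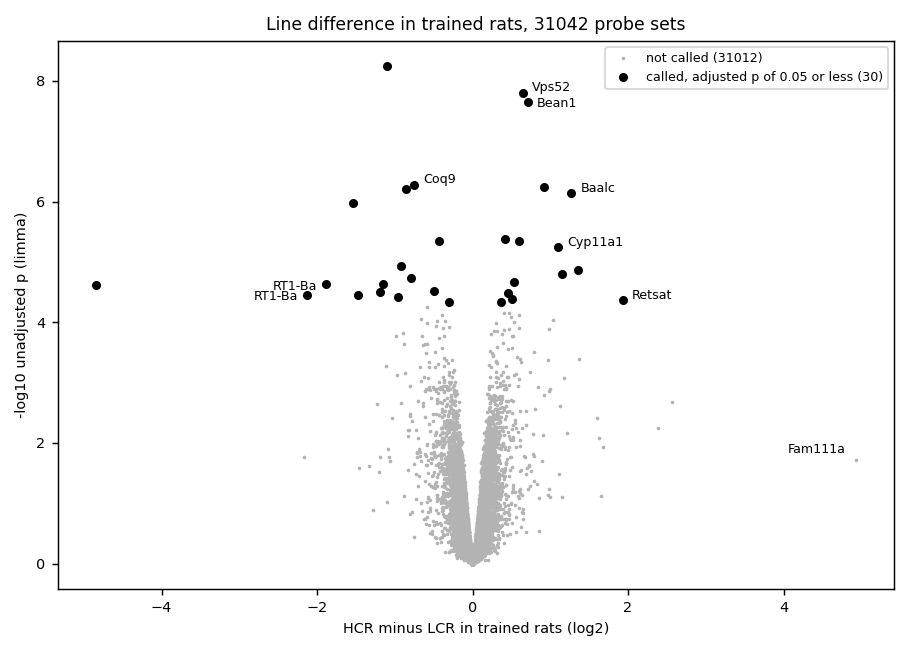
Each point is 1 of 31042 probe sets, with the HCR minus LCR difference in trained rats (log2) on the x axis and the -log10 of the unadjusted limma p on the y axis. The 30 black points are called; the grey point at 4.94, Fam111a, is the largest difference and was not called.

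Among genes of vesicle traffic and signalling, Vps52 and Bean1 were higher in HCR. Vps52 encodes a subunit of the tethering complexes that return endosomal vesicles to the Golgi. Its probe set 1394386_s_at read 7.14, 7.03, 6.98 and 6.99 in HCR rats 3 to 6 and 6.38, 6.38, 6.43 and 6.33 in LCR rats 1 to 4. All HCR arrays lay above all LCR arrays, and the difference was 0.65 ± 0.064 (SE, n = 4 per line), 1.57-fold, with an adjusted p of 0.000232. A second Vps52 probe set, 1369667_at, was higher by 0.54 ± 0.092 (adjusted p = 0.0376), while the third and dimmest, 1369668_x_at, differed by 0.15 and was not called. Bean1, which encodes a membrane protein that binds the ubiquitin ligase Nedd4, read 6.93, 6.97, 7.12 and 7.14 in HCR and 6.23, 6.33, 6.38 and 6.37 in LCR. The lines did not overlap, and HCR was higher by 0.71 ± 0.071, 1.64-fold (adjusted p = 0.000232). Other tethering genes on the list were not called: of 28 measured, Vps52 included, 18 were lower and 10 higher, with Vps50 at -0.23 and Vps39 at 0.31 as the next in order of p.

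Baalc, known from brain and from acute leukemia, read 7.56, 7.32, 7.65 and 7.18 in HCR and 6.32, 6.33, 5.94 and 6.04 in LCR. Every HCR rat exceeded every LCR rat, and the difference of 1.27 ± 0.16 was 2.41-fold (adjusted p = 0.00326). Dcps, the scavenger enzyme that removes the cap left after mRNA decay, was higher by 0.36 ± 0.066, or 1.29-fold (adjusted p = 0.0481). Of 26 measured decapping and decay genes, Dcps was the called one (0.0914% of all genes were called), and 19 of them lay below 0, as did 51.4% of all genes.

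Enzymes of lipid, steroid and retinoid metabolism made up the other called genes higher in HCR. Cyp11a1, the mitochondrial enzyme that cuts the cholesterol side chain as the opening step of steroid synthesis, read 7.83, 8.07, 7.67 and 7.99 in HCR and 6.51, 7.06, 6.55 and 7.05 in LCR. The LCR arrays fell into a lower pair, rats 1 and 3, and an upper pair, rats 2 and 4, all below HCR. HCR was higher by 1.10 ± 0.17, 2.14-fold (adjusted p = 0.0149). Retsat, retinol saturase, read 11.60, 11.60, 11.81 and 11.66 in HCR and 9.14, 11.12, 9.64 and 9.03 in LCR, so LCR rat 2 lay close to the HCR rats and the other LCR rats well below them. The difference was 1.93 ± 0.35, 3.82-fold (adjusted p = 0.0481), and 2.40 without that rat. Acot2 splits acyl-CoA in mitochondria; its probe set 1388210_at was higher by 0.51 ± 0.092 (adjusted p = 0.0471), but its brighter probe sets 1391433_at and 1384115_at gave 0.21 and -0.09 and were not called. Acot3, a thioesterase of the same gene family, differed by 0.57 with an adjusted p of 0.152.

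The lists around these enzymes held few other differences. Of 24 retinoid genes, 2 were higher (Retsat among them) and 2 lower with an unadjusted p under 0.05; Aldh1a2, which makes retinoic acid, differed by 0.29, and Crabp2, which binds it, by -0.25. Of 28 cholesterol and steroid genes, 1 was higher, Cyp11a1 itself, and 2 were lower, Idi1 of the isoprenoid pathway at -0.36 and Fdx1, the ferredoxin that supplies electrons to Cyp11a1, at -0.15. These were 8.33% higher and 8.33% lower of the retinoid list, and 3.57% and 7.14% of the cholesterol and steroid list. Over all 14217 genes, 3.54% were higher and 4.86% lower at that p, and 0.0914% had their brightest probe set called. Each of the 2 lists held 1 called gene, Retsat or Cyp11a1, around which it was set up. The called count therefore says nothing further about the list.

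**Figure D2:**
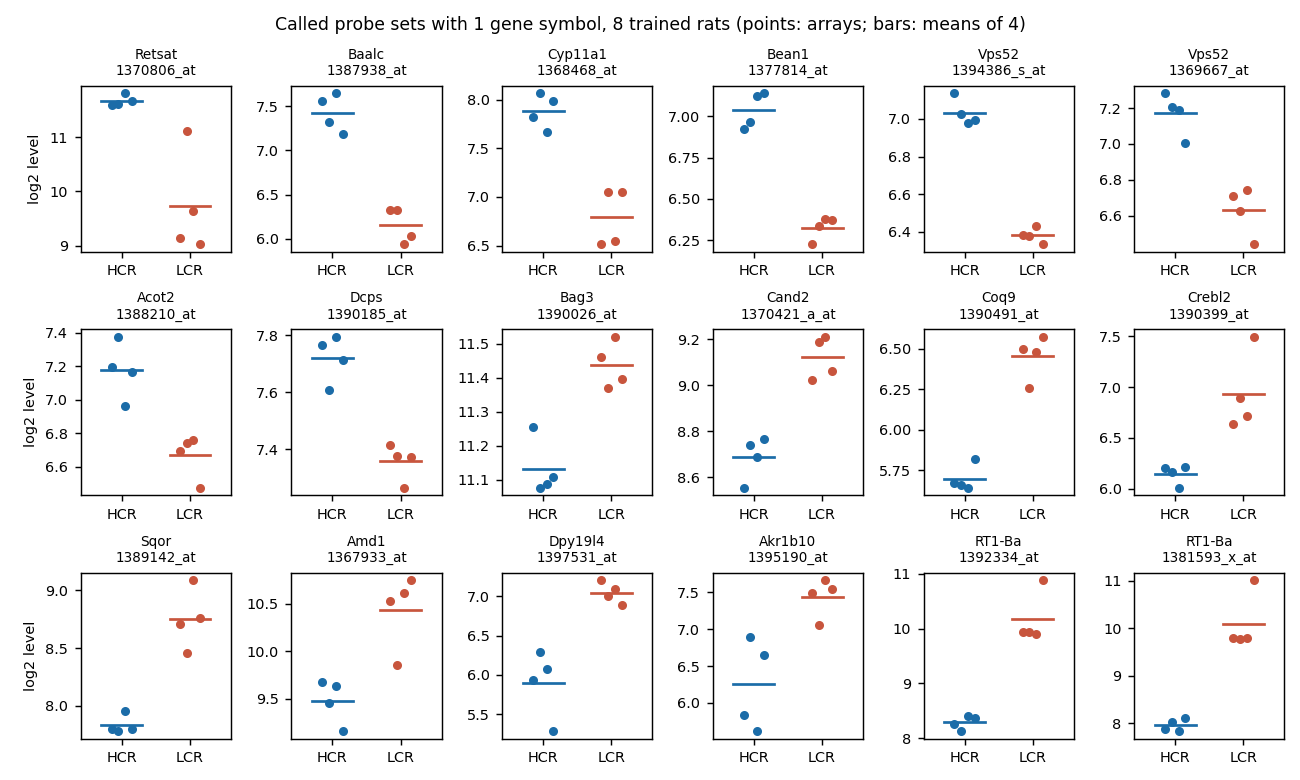
Log2 levels of the 18 called probe sets that carry 1 gene symbol, with 1 point per trained rat and a bar at the mean of 4, each panel on its own scale. The lines do not overlap in any panel. In several panels 1 LCR rat stands apart from the others. Examples are LCR rat 2 in Retsat (11.12) and Amd1 (9.86), and LCR rat 4 in Crebl2 (7.495) and both RT1-Ba panels (10.88 and 11.01).

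Among the mitochondrial and redox genes lower in HCR, Sqor, the quinone oxidoreductase that starts mitochondrial sulfide oxidation, read 7.80, 7.78, 7.96 and 7.80 in HCR and 8.71, 8.46, 9.09 and 8.76 in LCR. HCR was lower in every rat, by -0.92 ± 0.15 (1.89-fold, adjusted p = 0.0278). Coq9, which serves in coenzyme Q synthesis, read 5.67, 5.66, 5.64 and 5.82 in HCR and 6.50, 6.26, 6.48 and 6.58 in LCR on 1390491_at, a difference of -0.75 ± 0.095 (adjusted p = 0.00316). Its far brighter probe set 1388570_at differed by only -0.07 and was not called, so the 2 probe sets of this gene disagree. Akr1b10, an aldo-keto reductase, read 5.83, 6.90, 5.61 and 6.66 in HCR and 7.49, 7.06, 7.67 and 7.55 in LCR. HCR rat 4 and LCR rat 2 were separated by little, and the difference was -1.19 ± 0.21 (adjusted p = 0.0435), against 0.06 on a second probe set. At an unadjusted p under 0.05, the 22 sulfide and coenzyme Q genes held 2 lower and no higher ones, and the 32 antioxidant and aldo-keto genes 4 lower and 2 higher ones. Over all genes, 4.86% were lower and 3.54% higher at that p. Sod1, the cytosolic superoxide dismutase, lay at 12.29 to 12.49 in HCR and 12.56 to 12.73 in LCR with an adjusted p of 0.199, and Cat, catalase, differed by 0.29.

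Amd1, the decarboxylase that supplies the aminopropyl donor for polyamine synthesis, read 9.68, 9.46, 9.63 and 9.16 in HCR and 10.53, 9.86, 10.61 and 10.75 in LCR. LCR rat 2 was the nearest to HCR, and HCR was lower by -0.95 ± 0.17 (1.94-fold, adjusted p = 0.0460). No other of 18 polyamine genes was called; 13 of them lay below 0. Cand2, a muscle-enriched regulator of cullin ubiquitin ligases, was lower by -0.43 ± 0.065 (adjusted p = 0.0126), with HCR at 8.56 to 8.77 and LCR at 9.02 to 9.21. Crebl2, a bZIP factor related to CREB, was lower by -0.79 ± 0.13 (adjusted p = 0.0352), but its brighter probe set 1373618_at differed by 0.06. On the called probe set LCR rats 1 to 4 read 6.635, 6.895, 6.719 and 7.495, and HCR 6.009 to 6.213. Without LCR rat 4 the difference was -0.60. Dpy19l4, of the C-mannosyltransferase family, was lower by -1.15 ± 0.20 (2.22-fold, adjusted p = 0.0376).

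RT1-Ba, the alpha chain of a rat class II major histocompatibility molecule that presents peptides to helper T cells, had the largest fold among called named genes on its probe set 1381593_x_at, while on 1392334_at its fold was below that of Retsat. On 1392334_at the HCR rats read 8.25, 8.13, 8.40 and 8.37 and the LCR rats 9.94, 9.94, 9.91 and 10.88, and on 1381593_x_at LCR rat 4 was again highest, at 11.01 against 9.78 to 9.80. The differences were -1.88 ± 0.32 (3.68-fold, adjusted p = 0.0376) and -2.13 ± 0.38 (4.39-fold, adjusted p = 0.0437). Without LCR rat 4 they were -1.64 and -1.83. RT1-Ba has 4 probe sets, and the others did not follow: 1377334_at differed by 1.12 and 1370822_at by 0.15, and neither was called. Bag3, a co-chaperone that hands damaged sarcomere proteins to autophagy, was the smallest called difference, at 11.25, 11.08, 11.09 and 11.11 in HCR and 11.46, 11.37, 11.52 and 11.40 in LCR. It was lower by -0.31 ± 0.056, 1.24-fold (adjusted p = 0.0481).

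Of the 12 called probe sets with no single symbol, 6 were higher and 6 lower. The lowest p of all belonged to 1374583_at, lower in HCR by -1.09 ± 0.10 (adjusted p = 0.000174). The largest difference belonged to 1370428_x_at, which the annotation ties to several symbols: HCR rats 4, 5 and 6 read 4.50, 4.54 and 4.52, but HCR rat 3 read 9.52, near the LCR range of 10.27 to 11.30. Its difference of -4.85 ± 0.83 is thus the mean of rats at opposite ends of the range, and was -6.10 without HCR rat 3.

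The line difference was then compared between trained and sedentary rats. These comparisons share no arrays, but they take the spread of each probe set from the same fit and so are not independent. The sedentary difference and the interaction include sedentary HCR rat 5, the rat with low Xist. Of the 30 called probe sets, 20 were also called in the sedentary comparison, 66.7% of the 30 and 1.29% of the 1549 called there (4.99% of probe sets), and 29 had the same sign. Retsat differed by 1.93 in trained and 2.11 in sedentary rats, Baalc by 1.27 and 1.11, Bag3 by -0.31 and -0.31, and Amd1 by -0.95 and -1.05. The exception in sign was 1375795_at, with 1.35 in trained and -0.21 in sedentary rats. The line by training interaction, which tests the change in the difference, called none of 31042 probe sets with limma (lowest adjusted p 0.251), with 3068 at an unadjusted p under 0.05 (9.88%). At that unadjusted level 14 of the 30 had a larger difference in trained rats and none a smaller one, but the 30 were picked by the same trained arrays. Among these 14 were Vps52 (0.65 trained, 0.26 sedentary), Bean1 (0.71 and 0.30), Coq9 (-0.75 and -0.22), Cyp11a1 (1.10 and 0.40) and RT1-Ba 1392334_at (-1.88 and -0.47). For RT1-Ba 1392334_at the sedentary LCR rats read 8.155, 9.696, 9.953 and 8.277, and the sedentary HCR rats 8.481 to 8.63. Its sedentary difference is thus a mean over LCR rats at separate levels.

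**Figure D3:**
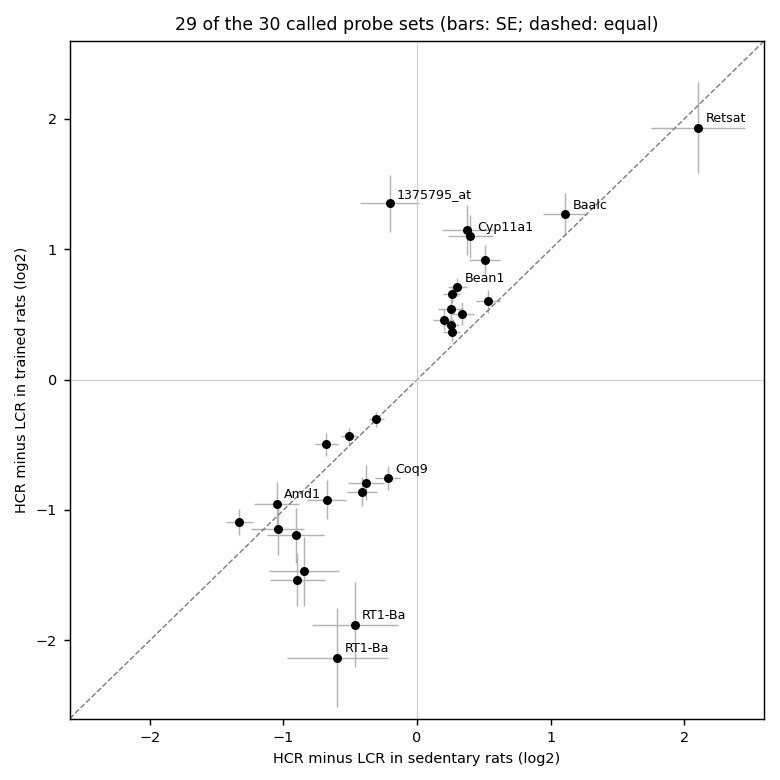
HCR minus LCR in trained rats (y, log2) against the same difference in sedentary rats (x, log2) for 29 of the 30 called probe sets, with bars for the SE and a dashed line where both are equal; 1370428_x_at, at -4.85 and -5.62, lies outside the axes. The point 1375795_at is the only 1 with opposite signs, and many points lie farther from 0 in trained than in sedentary rats.

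Below the called genes, the 12 named genes of lowest p without overlap in each direction had an adjusted p between 0.0672 and 0.199 and did not pass. On the higher side these 12 were Slc66a2, Tc2n, Pdlim1, Abtb3, Chrna1, Fgf12, Rtn1, Cela3b, Dpp4, Zfp318, Gpr137 and Rbfa, with differences of 0.28 to 0.98. Fgf12, a modulator of cardiac sodium channels, had the largest of these 12, 0.98 ± 0.20 (HCR 8.61 to 9.52, LCR 7.71 to 8.44). On the lower side the 12 were LOC100909782, Armcx3, Zfp217, Emc2, Klrd1, Tmem123, Tmem116, Nid2-ps16, Hcst, Ndufaf5, Prps2 and Sod1. Klrd1 and Hcst, a receptor and a signalling adaptor of natural killer cells, differed by -0.88 and -0.57.

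Of the 45 gene lists, the proteasome list had the largest share of members lower in HCR. The proteasome is the barrel-shaped protease that degrades ubiquitin-tagged proteins, and heat shock proteins fold or hold damaged ones. Of 33 measured proteasome genes 31 lay lower in HCR, against 51.4% of all genes, and 14 were lower at an unadjusted p under 0.05 (42.4%, against 4.86% of all genes), though none was called. Their median difference was -0.15, against -0.0034 over all genes. All 7 core alpha, all 6 core beta and all 6 ATPase subunits were lower. Psmc2, an ATPase of the regulatory particle, read 11.36, 11.36, 11.36 and 11.30 in HCR and 11.62, 11.43, 11.71 and 11.46 in LCR, a difference of -0.21 ± 0.064 with no overlap (adjusted p = 0.394); 3 of the 33 were lower without overlap, against 1.81% of all genes, and 1 was higher so, against 1.54%. Psmb4 (-0.23), Psmd11 (-0.25) and Psmb3 (-0.21) came next to it in order of p. Nfe2l1, the transcription factor that drives proteasome genes, went the other way, at 10.20, 10.28, 10.73 and 10.02 in HCR and 9.27, 8.91, 9.22 and 9.10 in LCR, a difference of 1.18 ± 0.29 without overlap that did not pass (adjusted p = 0.216).

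Single arrays set how many proteasome genes passed the unadjusted level. The list mean was 9.80 to 9.96 in HCR and 10.04, 9.87, 10.13 and 10.01 in LCR rats 1 to 4, so LCR rat 2 fell inside the HCR range. The count of 14 was 5 without LCR rat 3, 8 without LCR rat 1, 6 without HCR rat 6, 19 without LCR rat 2 and 7 when only the 8 trained arrays were fitted. In each of these fits at least 30 of the 33 genes were lower. In sedentary rats 32 of the 33 were lower in HCR, with a median of -0.14, against -0.018 over all genes.

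Of 44 heat shock proteins and co-chaperones, 37 were lower in HCR and 12 were lower at an unadjusted p under 0.05 (27.3%), with none higher; Bag3 was the called one. Their median was -0.11, and -0.07 without HCR rat 6. By role, 11 of 12 co-chaperones, all 7 chaperonin genes and all 3 HSP90 genes were lower, but 3 of 7 small heat shock proteins were higher. Hsp90ab1, a constitutive HSP90, differed by -0.23, Dnajb4, a J domain protein, by -0.29, Bag5 by -0.22 and Hsf1, the heat shock transcription factor, by -0.21, none passing. The count of 12 fell to 5 without HCR rat 4, 6 without LCR rat 1, 6 without LCR rat 3, 7 without HCR rat 6 and to 7 after quantile normalization, with 36 or more of 44 lower in each. Of 27 cytosolic ribosome genes 23 were lower, 4 of them at that p, with a median of -0.07. That count of 4 was 0 without HCR rat 5, 1 without HCR rat 4, HCR rat 6, LCR rat 1 or LCR rat 3 and 1 in the 8 trained arrays alone. The median was -0.04 without HCR rat 6 and -0.12 without LCR rat 2. With rat number as a replicate block 13 of the 27 were lower and the median was 0.0022. In sedentary rats 38 of the 44 heat shock genes were lower in HCR, with a median of -0.13. Of the 27 cytosolic ribosome genes 20 were lower there, with a median of -0.04.

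Interferon and antigen presentation genes formed the other lower group, and LCR rat 4 had the highest mean of the trained arrays on both lists. Interferon induces the immunoproteasome and the loading of peptides on class I molecules. Of 26 interferon genes 20 were lower and 7 were lower at an unadjusted p under 0.05 (26.9%, against 4.86% of all genes), with none called and a median of -0.14. All 5 immunoproteasome genes were lower. Psmb8, a catalytic subunit of the immunoproteasome, read 8.00, 7.43, 7.90 and 7.33 in HCR and 8.20, 7.98, 8.28 and 9.31 in LCR. The difference was -0.78 ± 0.23 (adjusted p = 0.394), with HCR rat 3 just above LCR rat 2. Psme2 (-0.36), Irf1 (-0.41), Cxcl10 (-0.47) and Psmb10 (-0.38) showed the same LCR rat 4 on top. Of 23 antigen presentation genes 19 were lower, 6 at an unadjusted p under 0.05, among them the called RT1-Ba and Tap1 (-0.46). Ciita, the class II transactivator, was 0.22 higher (adjusted p = 0.450). Of the 8 class II genes 5 were lower and 3 higher, with 1 in each direction at that p and a median of -0.02. RT1-Bb, the measured gene next to RT1-Ba, differed by 0.0065. Without HCR rat 6, 4 interferon and 3 antigen presentation genes were lower at that p. Without LCR rat 4 the interferon counts were 15 lower and 4 at that p with a median of -0.05, and the antigen presentation counts 15 and 3 with a median of -0.04. Without LCR rat 2 the medians were -0.39 and -0.21. The interferon median was also -0.25 without HCR rat 5 and -0.24 without LCR rat 1, and the antigen presentation median -0.06 without HCR rat 6. In sedentary rats 19 of the 26 interferon genes were lower in HCR, with a median of -0.10. Of the 23 antigen presentation genes 11 were lower there, with a median of 0.02.

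The leukocyte markers beside them were lower in part. Of 21 lymphocyte markers 16 were lower, 4 at an unadjusted p under 0.05, and Cd79b of B cells was higher by 0.26. Their mean lay at 5.53 to 5.91 in HCR and 5.88 to 5.98 in LCR (difference -0.21, two-sided exact permutation p = 0.0857, adjusted 0.898 over 20 properties). Ccl5, a T cell chemokine, differed by -1.23, and Prf1, perforin, by -0.38. Of 21 macrophage and myeloid markers 12 were lower. The 4 in that list's leukocyte role, Tyrobp (-0.39, without overlap) among them, were all lower at an unadjusted p under 0.05. None of 11 macrophage, 3 complement C1q and 3 granulocyte genes was, and all 3 granulocyte genes were higher. In sedentary rats 6 of the 21 lymphocyte markers and 10 of the 21 macrophage and myeloid markers were lower in HCR. Their medians there were 0.04 and 0.02. In RNA from whole tissue, fewer cells of a type and less RNA per cell cannot be told apart. The part of these cells in the interferon and RT1-Ba differences was not tested.

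**Figure D4:**
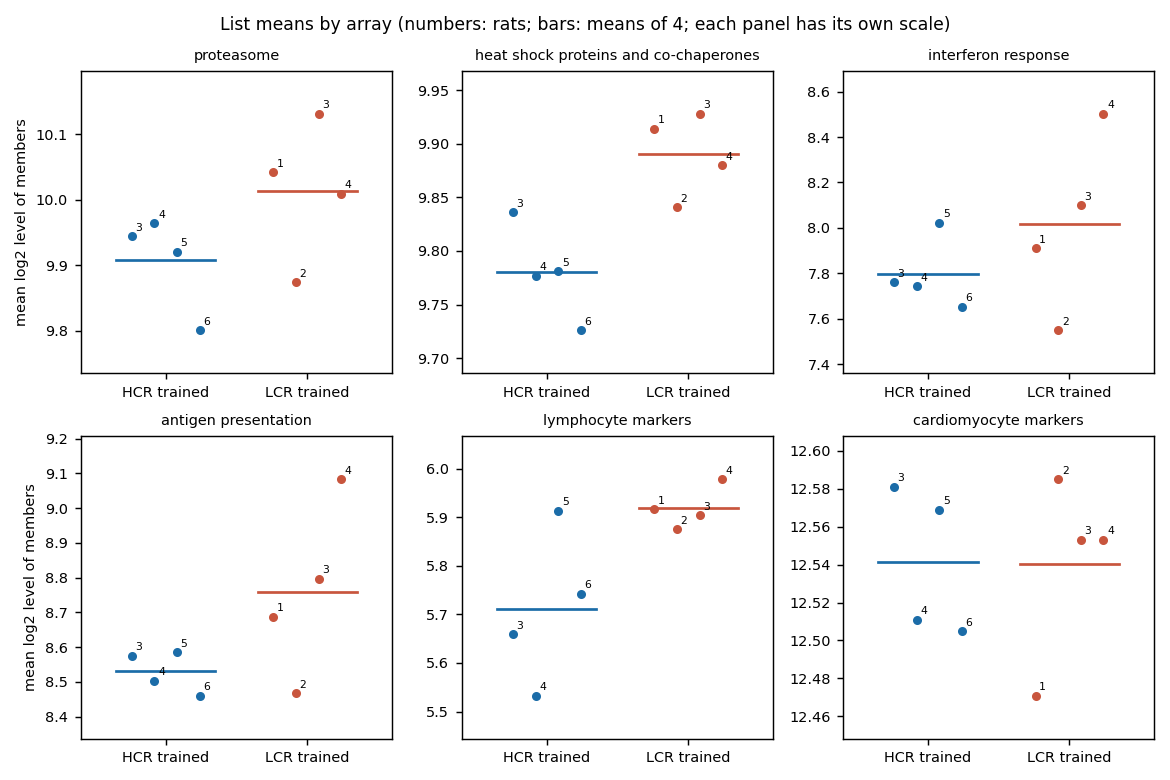
Mean log2 level of the members of 6 lists on each trained array, with rat numbers beside the points and bars at the means of 4; each panel has its own scale. LCR rat 4 is highest for interferon response (8.50) and antigen presentation (9.08), LCR rat 2 is lowest of the LCR rats for proteasome (9.87), and cardiomyocyte markers overlap between the lines.

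The promoters of these groups were read from RefSeq windows on GRCr8, from 250 bases before to 50 after the annotated start. The motifs searched, on both strands, were the heat shock element core GAANNTTC, found in 8.34% of 27457 windows, the antioxidant response element TGACNNNGC, in 12.2%, and the interferon element, which is GAAA, any 2 bases and GAAA again, in 3.77%. Of the heat shock list, 12 of 39 windows held the heat shock core, and of the interferon list 15 of 22 held the interferon element. The median difference was -0.13 for heat shock genes with the core and -0.10 for those without, and for interferon genes -0.26 with the element and -0.14 without; these differences were not tested. Of 29 proteasome windows 6 held the antioxidant element, with a median of -0.09, against -0.16 for the other 23. None of the 6 and 14 of the 23 were lower at an unadjusted p under 0.05, a split that was not tested. Bag3 and Psmb8 are shown because each has the lowest p of its list among members with the matching motif, whose letters are in capitals.
Bag3: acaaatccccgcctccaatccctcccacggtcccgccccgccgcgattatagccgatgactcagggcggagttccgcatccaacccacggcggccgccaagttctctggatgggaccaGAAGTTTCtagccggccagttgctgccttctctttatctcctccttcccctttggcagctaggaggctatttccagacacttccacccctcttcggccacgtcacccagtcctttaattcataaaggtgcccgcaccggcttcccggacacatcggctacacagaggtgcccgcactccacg
Psmb8: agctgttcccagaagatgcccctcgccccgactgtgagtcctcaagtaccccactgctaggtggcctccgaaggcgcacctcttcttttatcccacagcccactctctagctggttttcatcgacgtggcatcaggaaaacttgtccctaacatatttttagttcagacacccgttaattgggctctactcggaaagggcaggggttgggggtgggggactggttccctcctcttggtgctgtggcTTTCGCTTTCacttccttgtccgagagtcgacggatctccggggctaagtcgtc
The Bag3 window lies at chr1:192533210-192533509 on the plus strand and also holds 1 antioxidant element. The Psmb8 window lies at chr20:4656982-4657281 on the minus strand, and its match reads on the opposite strand of the window. A match is a description of these letters and shows no binding.

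No gene of the contraction and fuel lists was called on the brightest probe set that represents it. At an unadjusted p under 0.05, 3.54% of all genes were higher and 4.86% lower. Of 21 sarcomere genes 2 were higher at that p (9.52%), Myom2 (0.16) and Synpo2l (0.20), and none lower. Of 31 fatty acid oxidation genes 1 was higher, Acad9 at 0.28, and 2 were lower, Acsl3 at -0.18 and Ehhadh at -0.30. Respiratory complex I had 1 of 35 genes at that level, Ndufa1 at -0.12, and complexes III to V 1 of 34, Uqcc6, an assembly factor of complex III. Uqcc6 read 8.88, 9.18, 8.96 and 9.26 in HCR and 8.59, 8.43, 7.61 and 7.75 in LCR, a difference of 0.98 ± 0.25 that did not pass (adjusted p = 0.245). Of 26 glycolysis and glucose genes 4 were lower (15.4%), led by Pfkp (-0.41), Hk2 (-0.34), Ugp2 (-0.32) and Pfkfb2 (-0.38), and 2 were higher (7.69%).

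Nppa, the atrial natriuretic peptide that the stressed ventricle also makes, read 11.61, 12.78, 11.70 and 12.46 in HCR and 10.31, 10.77, 10.41 and 11.57 in LCR. The lines did not overlap, but HCR rats 3 and 5 lay just above LCR rat 4, and the difference of 1.37 ± 0.31 (2.59-fold) was not called (adjusted p = 0.156). Nppb, its ventricular relative, differed by 0.29 and Acta1, skeletal actin of the fetal program, by 0.72, with overlap in both. Atrial genes as a list, with 8 measured members and Nppa among them, lay at 7.58 to 8.06 in HCR and 7.36 to 8.05 in LCR. That mean holds Nppa itself, so it is no separate gauge of atrial tissue. The part of atrial tissue in the Nppa difference was not tested. The myosin genes Myh6 and Myh7 differed by 0.01 and -0.18 on their brightest probe sets and by -0.47 and -0.76 on their other ones, none of them with an unadjusted p under 0.05. On the other Myh6 probe set HCR rat 6 read 8.402, against 11.277 to 11.848 in HCR rats 3 to 5 and 10.961 to 11.375 in LCR. Of 26 calcium cycling genes, Camk2d (0.14) and Casq2 (0.16) were higher and Cacnb2 (-0.33) lower at an unadjusted p under 0.05, all without overlap. These were 7.69% and 3.85% of the list, against 3.54% and 4.86% of all genes at that p. Without overlap, 1.54% of all genes were higher and 1.81% lower.

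No vessel or matrix marker was called. Of 14 endothelial markers 5 were higher at an unadjusted p under 0.05 (35.7%, against 3.54% of all genes), among them Egfl7 (0.18), Nos3, the endothelial nitric oxide synthase (0.22), and Eng (0.19), and Cldn5 of tight junctions was lower (-0.37). That count of 5 was 2 without HCR rat 5, LCR rat 1, LCR rat 2 or LCR rat 3, and 3 without HCR rat 4, without HCR rat 6, with arrays centred on their medians or in the 8 trained arrays alone. The endothelial mean itself was 8.49 to 8.62 in HCR and 8.47 to 8.55 in LCR. Acta2 and Pdgfrb of mural cells differed by 0.27 and 0.22 without overlap, 2 of 12 mural markers, against 1.54% of all genes in that direction. Of 41 fibroblast and matrix genes 5 were higher at that p (12.2%), among them Timp3 (0.23), Sparc (0.23), Col18a1 (0.19) and Col4a1 (0.16). At the same level 2 were lower (4.88%, against 4.86% of all genes). That count of 5 was 3 without HCR rat 4 or LCR rat 3. Clec3b, tetranectin, read 7.49 in HCR rat 3 against 5.93 to 6.07 in HCR rats 4 to 6 and 7.24 to 7.75 in LCR; its difference of -1.11 was not called, but was -1.49 and called without HCR rat 3 (adjusted p = 0.000245).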

How the data were processed

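The deposited values, read here as log2 values, were made by the authors with RMA (background correction, quantile normalization, log transform and probe set summary), per the submitters' processing notes and the series' design text, which name no version. The sources used here do not give the base, and another base would change folds but no test. Of 31099 probe sets, 57 controls were left out and no filter on signal was set. Names came from the platform annotation supplied: 20826 probe sets had 1 symbol, 436 several, and 9780 were unlisted. A gene in a list was represented by its brightest probe set (14217 genes), and 7 list symbols were matched through RefSeq synonyms.

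A limma fit (3.58.1, R 4.3.3) per probe set used 16 arrays with 1 mean per group and 12 residual degrees of freedom. Tests were two-sided, and adjusted p-values are Benjamini-Hochberg over 31042 probe sets. Values after ± are standard errors of the log2 difference. The fit was checked on simulated data. Array number, 4 per group, limits the precision.

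The 45 gene lists and the members were chosen with earlier results of these data known. Named were all called probe sets, up to 12 non-overlapping genes per direction of next lowest p, up to 5 members per list and 21 preset genes; those printed from the last 2 sets were picked after their values were seen. Fam111a, the comparison of neighbouring genes, the use of 1 promoter window per gene and the promoters printed were also chosen after seeing the data. Alternatives were other scalings, filters, weights and fits, and leaving out each array.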

Additional observations from a re-analysis of the deposited data

Results flagged for a closer look

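In 10 of 214 groups of 4 trained arrays (4.67%), 1 array lay far from the others by Dixon's criterion, and chance flags about 1 group in 20. Among called probe sets, HCR rat 4 read 6.26 on 1374583_at against 6.57 to 6.60, HCR rat 5 read 7.96 for Sqor against 7.78 to 7.80, and HCR rat 3 read 11.25 for Bag3 against 11.08 to 11.11. HCR rat 3 read 9.52 on 1370428_x_at against 4.50 to 4.54. LCR rat 4 read 10.88 and 11.01 on the called RT1-Ba probe sets, where the other LCR rats read 9.91 to 9.94 and 9.78 to 9.80. For Slc66a2, HCR rat 4 read 7.35 against 7.58 to 7.61. Among list means, LCR rat 1 had 8.52 for sulfide oxidation and coenzyme Q against 8.57 in the others, HCR rat 4 had 11.68 for respiratory complex I against 11.73, and LCR rat 2 had 6.05 for nerve and Schwann cell markers against 5.93 to 5.94.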

How the results depend on the processing

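Of the 30 called probe sets, all kept their sign in every alternative run, and 5 were called in every one (1374583_at, Vps52 1394386_s_at, Bean1, Coq9 1390491_at and 1389458_at). The number called, 30, was 11 with 1 probe set per gene, where fewer were tested, and 12 to 53 when 1 array was left out. The 14 higher were 5 with 1 probe set per gene and 9 with rat number as a replicate block, and 5 to 22 with an array left out. The 16 lower were 8 in the 8 trained arrays alone, 10 with arrays centred on their medians, 6 with 1 probe set per gene, 10 with trend and robust eBayes, and 5 to 31 with an array left out; the cause was not tested. The interaction called 0 in every alternative. Its sign changed in some alternative for 7 of the 30 (Cand2, Dpy19l4, Amd1, Retsat, Bag3, 1371775_at and 1370428_x_at), where its unadjusted p was 0.380 or higher. With the replicate block 20 were called. Rat numbers are shared by only 2 pairs of the trained groups, no source says that they mark litters or days, and deviations of 16 same-numbered pairs correlated at -0.23 to 0.34, so the block is given here only. Under it 8 proteasome and 7 heat shock genes were lower at an unadjusted p under 0.05, and 13 of 27 cytosolic ribosome genes were lower, with a median near 0, in place of 23 and -0.07. Of the genes named as not passing, 19 passed in some alternative, among them Nppa with the block (adjusted p = 0.0034) and Nfe2l1 in the 8 trained arrays alone (0.0139).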

Other observations

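The following values were looked up after the data were seen and carry no explanation. Besides the 13 called probe sets of 2-fold or more, 28 others differed by 2-fold or more without being called, and 20 of these overlapped between the lines. The largest was Fam111a, which encodes a protease that restricts viruses and acts at DNA replication: HCR rats 3, 4 and 5 read 11.37, 11.43 and 11.33 and HCR rat 6 read 4.92, while the LCR rats read 4.70 to 4.99. Its difference of 4.94 ± 1.90 had an adjusted p of 0.564. Both levels also occurred among sedentary rats, in which HCR read 4.90, 4.90, 11.14 and 11.31 and LCR 11.81, 4.84, 11.54 and 4.73, so no level belonged to a line or a training state.

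Called genes were also set beside their neighbours on the RefSeq gene order of GRCr8. Of 160 measured genes that were among the 5 nearest on either side of a called gene, 27 had an unadjusted p under 0.05 (16.9%), against 8.41% of 13884 placed genes; neighbours share their region and are not independent. RT1-Ba and Vps52 both lie on chromosome 20 with 14 measured genes between them, of which 11 were lower in HCR and 4 had an unadjusted p under 0.05 (Psmb8, Tap1, Psmb9 and Hsd17b8), and none was called. Beside Acot2 lay Acot3 (0.57) and Dnal1 (-0.45), and beside Baalc lay Atp6v1c1 (0.46).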
